A study of Mus musculus with 16 samples.

Results

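The genes described here encode proteins of the cytosolic ribosome, the particle that translates messenger RNA. A list of 46 gene identifiers defined them, 25 of the large subunit and 21 of the small subunit, out of the 54446 mouse identifiers with a row in each library. The rule of the list is the gene family and uses no measured value, although the family was picked for description with earlier results of these data known. It came with 43 symbols, which were set against the identifiers from their known pairing, and the other 3 members are counted but not named. All 46 passed the filter on low counts.

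Ribosomal protein genes are short, strongly transcribed by RNA polymerase II and active in every growing cell. Their proteins are needed in equal numbers, since most of them enter each ribosome as a single copy. Their transcripts begin with a run of pyrimidines, through which growth signals adjust translation, and the mature mRNAs are long-lived. Many of these genes also carry small nucleolar RNAs (snoRNAs), guides for ribosomal RNA modification, in their introns.

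Newly made RNA had been captured from C57BL/6 mouse embryonic stem cells, labelled Mettl14 Control or Mettl14 CKO, to examine transcription after loss of Mettl14. METTL14 pairs with METTL3 to form the RNA methyltransferase that makes N6-methyladenosine. All cells grew with 15% FBS, the inhibitors CHIR99021 (3 μM) and PD0325901 (1 μM) and LIF at 1000 U/ml, and 5-ethynyl uridine (EU), a uridine analogue built into RNA as it is made, was added at 0.5 mM for the last 10, 20, 30 or 60 min before collection. With 2 libraries for every genotype at every EU time, there were 8 groups and 16 libraries. The labels give neither the allele, any driver or inducer of the deletion, nor the number of clones. They speak of 8 plates, and separate cultures for both libraries of a group are not stated, so p-values measure the spread between these libraries, which may be technical. Markers of stem cells and the level of Mettl14 itself were not analysed here, because the count tables carry no symbols.

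Libraries held 5109162 to 28502750 mouse counts, and the 46 genes together received 166202 to 890781 of them. A single member had between 430 (Rpl13a) and 63223 counts in a library. Levels are given as CPM, the member's count scaled to a fixed total of mouse counts per library, without division by gene length, so they are compared between libraries and not between genes. Both CKO libraries of 30 min stood apart, with 5188643 and 5109162 mouse counts against at least 11902184 in every other library. They also had counts on 30583 and 31826 identifiers, against at most 26857 elsewhere. Counts that include them are therefore given with and without the 30 min libraries where such a fit can be made. A count in bulk RNA cannot tell fewer cells of a kind from less RNA per cell.

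The ribosomal protein genes lie on 18 chromosomes, and 8 of the 43 named are on chromosome 7. The named genes span 1059 bases (Rpl41) to 8498 bases (Rpl5), with a median of 3352, in RefSeq's GRCm38.p6 annotation. Stretches of 4 promoters are printed to show the start regions of 2 genes with a large and 2 with a small difference between genotypes at 10 min. These had the largest and smallest values among genes with 1 promoter window. Each stretch runs 5′ to 3′ from 180 bases before to 30 bases after the RefSeq start, 210 bases in all, with capitals for the 3 motifs described after them.
Rpl41 (chr10:128549139-128549348, minus strand): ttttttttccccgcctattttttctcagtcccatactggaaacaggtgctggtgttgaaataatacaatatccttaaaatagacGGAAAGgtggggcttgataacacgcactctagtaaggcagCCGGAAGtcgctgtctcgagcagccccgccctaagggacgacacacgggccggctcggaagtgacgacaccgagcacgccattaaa
Rps15 (chr10:80292251-80292460, plus strand): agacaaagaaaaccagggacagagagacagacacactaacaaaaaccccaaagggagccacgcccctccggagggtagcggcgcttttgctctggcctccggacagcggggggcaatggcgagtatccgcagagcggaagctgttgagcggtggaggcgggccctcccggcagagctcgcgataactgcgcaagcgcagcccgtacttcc
Rpsa (chr9:120127586-120127795, plus strand): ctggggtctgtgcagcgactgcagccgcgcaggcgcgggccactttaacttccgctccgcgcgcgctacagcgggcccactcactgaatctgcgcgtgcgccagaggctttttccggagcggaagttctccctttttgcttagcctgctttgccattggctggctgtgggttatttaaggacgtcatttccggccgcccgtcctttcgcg
Rpl6 (chr5:121204321-121204530, plus strand): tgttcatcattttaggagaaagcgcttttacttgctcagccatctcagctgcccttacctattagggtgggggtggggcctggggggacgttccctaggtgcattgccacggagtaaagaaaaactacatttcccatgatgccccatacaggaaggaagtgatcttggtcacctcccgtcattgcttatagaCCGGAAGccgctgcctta

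The 3 motifs were counted on both strands in windows of 300 bases, 250 before and 50 after the start, and partial overlaps between motifs were allowed. They were chosen after such windows had been looked at, and 36 of the 43 named genes had a window, 40 windows in all. CCGGAAG, the core of binding sites of ETS factors such as GABPA, occurred in 13 of 40 windows (32.5%), against 8.86% of all 32851 windows. CTTTCC, a short pyrimidine run, occurred in 16 of 40 (40%), against 26.6%. Its count takes either strand and any position in the window, so it does not measure the run at the transcript start. TATAAA, the TATA box, occurred in 2 of 40 (5%), against 13.6%. Rpl41 and Rpl6, at opposite ends of the difference at 10 min, both held CCGGAAG in the printed stretch. Rpsa and Rpl6 held CCGGAAG and CTTTCC in the full window, though Rpsa held neither in the printed stretch, and Rps15 held none of the motifs in either.

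These genes took a smaller share of captured RNA at 30 and 60 min than at 10 min in both genotypes, and a larger share in CKO than in Control cells. The 46 genes received 3.795% and 3.811% of mouse counts in the Control libraries of 10 min, 3.656% and 3.55% at 20 min, 2.89% and 2.829% at 30 min, and 2.956% and 2.948% at 60 min. In CKO cells the share was 5.465% and 6.196% at 10 min, 3.905% and 3.896% at 20 min, 3.203% and 3.296% at 30 min, and 4.007% and 3.354% at 60 min. Both CKO libraries were above both Control libraries at every EU time. The ratio of CKO to Control means was 1.533 at 10 min, 1.082 at 20 min, 1.137 at 30 min and 1.247 at 60 min. At 10 min the mean was 3.803% ± 0.0114 (SD, n = 2) in Control and 5.831% ± 0.517 in CKO cells.

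**Figure D1:**
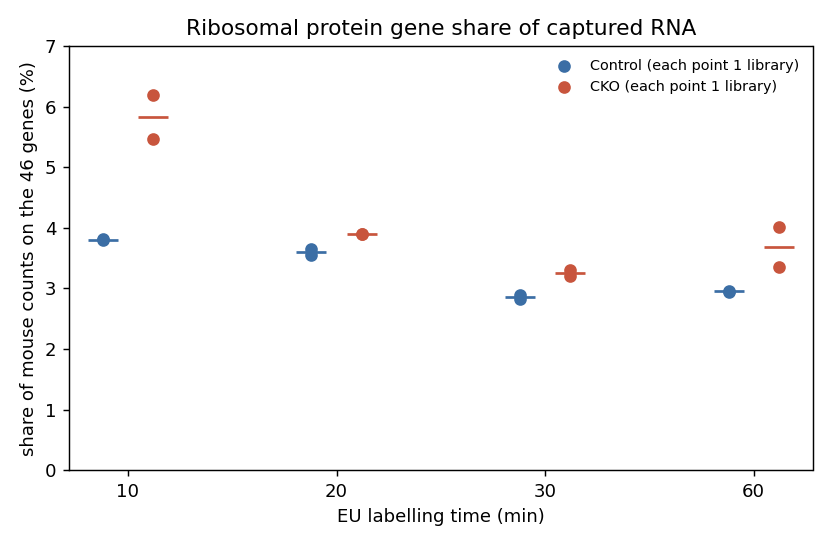
Share of mouse counts (%, y axis) on the 46 ribosomal protein genes at each EU labelling time (min, x axis), with 1 point per library and a line at the mean of each group. The CKO libraries of 10 min, at 5.465% and 6.196%, lie above all other libraries, and the Control libraries of 10 min are at 3.795% and 3.811%.

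At 10 min of EU, ribosomal protein transcripts were higher in CKO cells almost throughout the group. The test was edgeR's quasi-likelihood F-test with TMM scaling, which sets each library against the bulk of its genes, and Benjamini-Hochberg adjustment over all 27488 identifiers tested, with a threshold of 0.05. Of the 46 members 43 were higher and 0 lower, while 6.45% of all identifiers were higher and 5.36% lower. At an unadjusted p under 0.05, 0 members were lower, and with DESeq2 44 members were higher and 0 lower. The members' median log2 fold change was 0.75, with a range of 0.09 to 1.25, and the median over all identifiers was 0.00. Among the 2134 identifiers with a mean of at least 100 CPM, a class that holds all 46 members and was formed after values had been seen, 22.5% were higher and the median was -0.03. Library totals in place of TMM gave 40 higher. ERCC scaling, described further on, gave 46, but 43.1% of all identifiers and 97.8% of the class of at least 100 CPM were then higher as well. Without the 30 min libraries 42 members were higher and 0 lower, against 10.9% and 11.9% of all identifiers. Both CKO libraries exceeded both Control libraries in 44 members, a pattern seen in 17.2% of all identifiers.

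Both subunits took part. Of the 25 large subunit genes 23 were higher, with a median log2 fold change of 0.68, and of the 21 small subunit genes 20 were higher, with a median of 0.76. The next paragraphs go through the genes by role.

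The stalk of the large subunit, built from Rplp0, Rplp1 and Rplp2, recruits the GTPases that drive translation. Rplp1 (ENSMUSG00000007892.8) had 1740 and 1670 CPM in Control and 3284 and 3767 CPM in CKO cells, and Rplp0 had 1352 and 1428 against 2319 and 2508 CPM. The CKO libraries of both genes lay well clear of the Control libraries. The fold was 2.18 for Rplp1 (log2 1.13 ± 0.07, SE, edgeR adjusted p = 6.41e-11) and 1.83 for Rplp0 (log2 0.87 ± 0.07, adjusted p = 2.31e-09). Rplp2 was 1.92-fold higher with a wider error (log2 0.94 ± 0.21, edgeR adjusted p = 0.0206), and its Control libraries of 1099 and 1155 CPM stood below 1930 and 2181 CPM.

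Large subunit core genes spread over the whole range. Rpl41 (ENSMUSG00000093674.7), which encodes a very short and strongly basic peptide, had 625.1 and 609.3 CPM in Control and 1371 and 1419 CPM in CKO cells at 10 min. This was the largest fold of the group at 2.38 (log2 1.25 ± 0.28, edgeR adjusted p = 0.0211). Rpl32, a structural protein, had a fold above those of most other large subunit genes, with 513.1 and 511 against 954.6 and 1042 CPM (fold 2.06, edgeR adjusted p = 8.99e-08). Rpl10, which joins the large subunit late in its assembly, had a fold of 1.52, and Rpl4 and Rpl13a, structural proteins of the same subunit, had folds of 1.48 and 1.61. Rpl3, a protein near the site of peptide bond formation, had 1204 and 1305 against 1246 and 1393 CPM, and its libraries overlapped between genotypes. Its log2 fold change of 0.15 ± 0.07 did not pass the test (edgeR adjusted p = 0.19), nor did that of Rpl6, 0.21 ± 0.07 (adjusted p = 0.0597).

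Rpl5 and Rpl11 form a particle with the smallest ribosomal RNA that also binds MDM2, the negative regulator of p53. Rpl5 had 1341 and 1337 CPM in Control and 1375 and 1605 CPM in CKO cells, a fold of 1.17 (edgeR adjusted p = 0.0352) that did not pass without the 30 min libraries (adjusted p = 0.0627). Rpl11 had 559.9 and 582.8 against 758.6 and 861.7 CPM, with a fold of 1.5 (edgeR adjusted p = 0.000176). Partners in the same particle thus had different folds, and the difference between the folds was not tested.

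In the small subunit, Rps15 (ENSMUSG00000063457.14), which is needed for export of the subunit from the nucleus, had 304.1 and 303.4 CPM in Control and 653.4 and 664.8 CPM in CKO cells (fold 2.29, edgeR adjusted p = 1.03e-08). Replicates of Rps15 agreed closely in both genotypes. Rps16 and Rps20, proteins of the head of the subunit, were 2.24-fold and 2.1-fold higher. Rps18 and Rps19, also of the head, were each 1.84-fold higher, and mutation of the human counterpart of Rps19 causes Diamond-Blackfan anaemia. Rps3, at the entry of the mRNA channel, rose 1.69-fold. Rps4x, whose gene lies on the X chromosome, rose 1.64-fold, and Rps14, which works in the decoding platform, rose 1.58-fold. Rps6, the classic target of the S6 kinases, had 482.8 and 506.9 against 580.3 and 620 CPM, a fold of 1.28. Rps2 was 1.19-fold higher (edgeR adjusted p = 0.0226). Rpsa (ENSMUSG00000032518.6), also known as the laminin receptor, had 2463 and 2533 CPM in Control and 2406 and 2642 CPM in CKO cells. Its libraries overlapped, and its log2 fold change of 0.09 ± 0.06 was the smallest of the group and did not pass the test (edgeR adjusted p = 0.39).

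**Figure D2:**
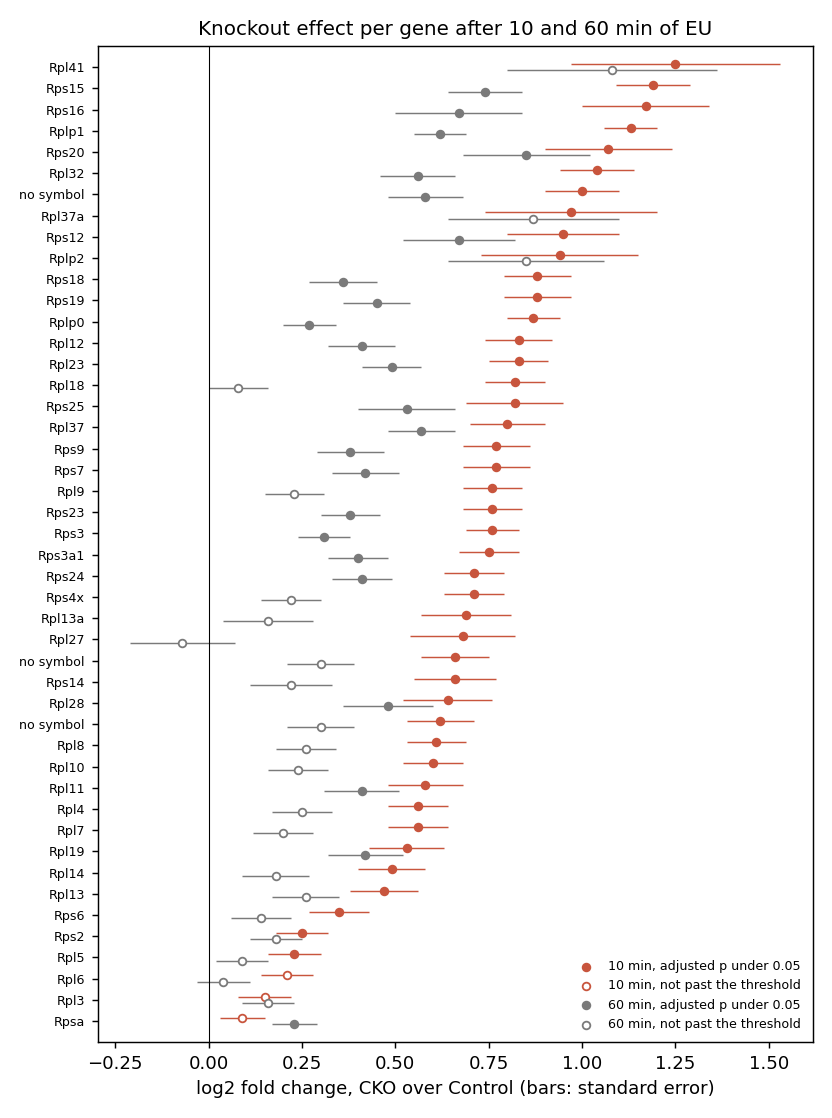
Log2 fold change of CKO over Control (x axis) for each of the 46 genes (y axis) after 10 min (red) and 60 min (grey) of EU, with bars for the standard error and filled points where the edgeR adjusted p was under 0.05. At 10 min 43 points are filled, from 0.23 (Rpl5) to 1.25 (Rpl41), and at 60 min 24 are filled. With ERCC scaling 0 members passed at 60 min, when 0.0437% of all identifiers were higher. The members' counts per ERCC count at 60 min were 5.113 and 5.184 in CKO and 3.918 and 3.864 in Control libraries.

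At 20 min few members passed the test of the difference between genotypes. Rplp1 (fold 1.49, edgeR adjusted p = 2.23e-05), Rplp0 (fold 1.32) and Rps23 (fold 1.25) were higher in CKO cells, 3 members in all, and 0 were lower, while 0.706% of all identifiers were higher and 0.255% lower. At an unadjusted p under 0.05 there were 11 higher and 0 lower, and DESeq2 called the same numbers as edgeR. The median log2 fold change of the members was 0.09 and that of all identifiers 0.00. Both CKO libraries exceeded both Control libraries in 30 members and lay below them in 8. The share of all identifiers with these patterns is not given here. Rps23 helps to form the decoding site, and its libraries of 1391 and 1242 CPM in Control lay below 1654 and 1649 CPM in CKO cells. Rpl41, the gene with the largest difference at 10 min, had 571.8 and 596.5 against 647.1 and 664.2 CPM and did not pass the test (edgeR adjusted p = 1.0). The number called at 20 min was 1 without the second Control library of 20 min, 8 and 7 without the first and second CKO library of 30 min, and 7 without either CKO library of 60 min. Without all the 30 min libraries it was 3, against 1.24% of identifiers higher.

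At 60 min 24 members were higher in CKO cells and 0 were lower, against 1.79% and 0.84% of all identifiers. The class of at least 100 CPM had 12.7% higher. At an unadjusted p under 0.05 the counts were 38 and 0, and with DESeq2 they were 29 and 0. The members' median log2 fold change was 0.37, against 0.00 for all identifiers. Of the 21 small subunit genes 15 were higher (median 0.38), and of the 25 large subunit genes 9 (median 0.26), a difference between subunits that was not tested. Both CKO libraries exceeded both Control libraries in 42 members, against 20.2% of all identifiers. The number of members called by edgeR, 24 with all libraries, depended on single libraries: it was 6 and 5 without the first and second Control library of 60 min, 9 without the first CKO library of 60 min and 15 without the first Control library of 10 min, and with ERCC scaling 0 members passed, against 0.0437% of all identifiers higher. A fit without the 30 min libraries gave 22, against 3.04%.

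Among named genes at 60 min, Rps20, a small subunit protein of the head, had the largest fold that passed, 1.81 (log2 0.85 ± 0.17, edgeR adjusted p = 0.0181). It had 527.5 and 514.1 CPM in Control and 1154 and 668.7 CPM in CKO cells, so the CKO libraries were far apart but both above Control. Rps15 was at 222 and 213.4 against 412.2 and 289 CPM (fold 1.67, edgeR adjusted p = 8.51e-05). Rplp1 had a fold of 1.53, and Rps12 and Rps16 each had a fold of 1.59. With the 30 min libraries left out, Rps12 (edgeR adjusted p = 0.0571), Rps16 (0.0914) and Rps25 (0.0509) did not pass. Rpsa, which did not pass at 10 min, was 1.18-fold higher at 60 min (edgeR adjusted p = 0.0389). Rpl41 had 398.8 and 407.4 against 1137 and 517.2 CPM, a fold of 2.12 that did not pass (edgeR adjusted p = 0.108). Its CKO libraries lay far apart, both above Control.

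The CKO libraries of 60 min differed from each other across the group. In the first CKO library of 60 min 37 of 46 members were higher than in the second, with a median log2 ratio of 0.24, and 8 members differed by over 1.5-fold. Rplp2 had 1471 CPM in the first and 809.5 CPM in the second, and Rpl37a, a zinc-binding protein of the large subunit, had 431.7 and 210.9 CPM. At 10 min it was the second CKO library that was higher, in 44 of 46 members, with a median log2 ratio of first to second of -0.17. Genes with a larger difference between genotypes at 10 min tended to have the larger ratio between the CKO libraries of 60 min, with Pearson r = 0.62 and Spearman rho = 0.65 over 46 genes. The difference at 60 min, which uses these same CKO libraries, went with that ratio more closely, with Spearman rho = 0.83 over the 43 named genes. These are descriptions over genes of the same libraries, which share depth and are not independent.

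**Figure D3:**
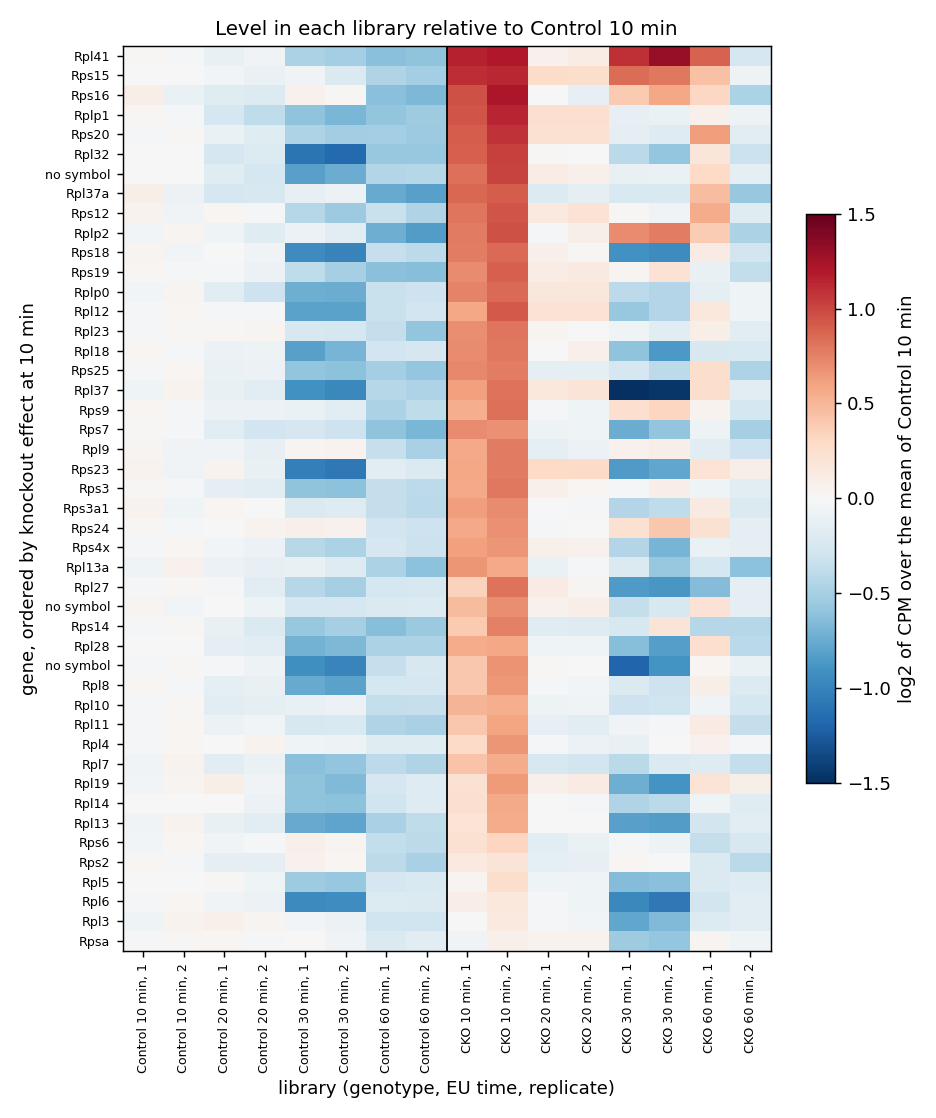
Colour shows log2 of CPM over the mean of the Control libraries of 10 min for each of the 46 genes (rows, ordered by the difference at 10 min) in each of the 16 libraries (columns, by genotype, EU time and replicate), clipped to the colour scale. The CKO libraries of 10 min are red in almost every row, and the first CKO library of 60 min is redder than the second, as for Rpl41 at 1137 and 517.2 CPM.

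At 30 min the direction of the group depended on the scaling. With TMM 9 members were higher and 22 lower in CKO cells, against 29.4% of all identifiers higher and 19.1% lower, while 18 were higher and 5 lower with library totals, 18 and 7 with DESeq2's size factors, and 2 and 6 with ERCC scaling (27.2% and 15% of all identifiers). The median log2 fold change was -0.19 over the members, 0.61 over all identifiers and -0.65 over the class of at least 100 CPM, so the members lay above the class of similar level. No fit without the CKO libraries of 30 min can be made for this comparison. Their TMM factors were 1.224 and 1.244, so fitted folds at 30 min are lower than ratios of CPM. Rpl41 had 444.7 and 434.9 CPM in Control and 1323 and 1525 CPM in CKO cells, with a log2 fold change of 1.41 ± 0.28 (edgeR adjusted p = 0.00432). Rps15 had 292 and 261.8 against 542.1 and 523.8 CPM. Rpl3, in contrast, had 1218 and 1181 against 731.6 and 791.1 CPM, and Rpsa had 2487 and 2415 against 1720 and 1677 CPM, with no overlap between genotypes for either. Members thus moved apart from each other at 30 min, over a range of -0.94 to 1.41.

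Over all EU times, in a model of genotype and EU time, 16 members were higher in CKO cells and 0 lower, against 6.77% and 4.7% of all identifiers. The counts at an unadjusted p under 0.05 were 22 and 0, and those of DESeq2 were 27 and 0. Without the 30 min libraries 33 members were higher and 0 lower, against 6.55% and 6.04% of the 20204 identifiers then tested, and the median log2 fold change went from 0.23 to 0.35 for the members and from 0.19 to -0.02 for all identifiers. Leaving out the CKO libraries of 30 min alone gave 36 members. Rpl41 (log2 0.98 ± 0.16, edgeR adjusted p = 0.000541), Rps15 (0.73 ± 0.11), Rplp1 (0.64 ± 0.11), Rplp2 (0.63 ± 0.12) and Rps20 (0.59 ± 0.13) had the largest values. Without 30 min the values were 0.82 for Rpl41, 0.74 for Rps15, 0.76 for Rplp1, 0.63 for Rplp2 and 0.75 for Rps20.

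The difference between genotypes varied with EU time. This was tested with the interaction of genotype and time (F-test, 3 degrees of freedom), which passed for 44 members, against 22.7% of all identifiers. Without the 30 min libraries it passed for 25, against 5.58%. Rpl41 and Rplp2 were the members that did not pass with all libraries. The log2 difference was larger at 10 than at 60 min in 44 members, and larger at 60 than at 20 min in 43. Shares over all identifiers were not computed for these 2 counts, and the members share the same libraries, so they are not independent observations.

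Change with labelling time was next compared within each genotype. In Control cells no member passed the test from 10 to 20 min, with 0 higher and 0 lower at 0.968% and 0.106% of all identifiers. At an unadjusted p under 0.05 there were 0 higher and 2 lower, and DESeq2 called 2 lower, while ERCC scaling made all 46 higher, against 52.9% of all identifiers. In the fit without the 30 min libraries 1 member, Rplp1, was lower (log2 -0.30, edgeR adjusted p = 0.0431), against 0.629% of identifiers. In CKO cells 43 members were lower over the same interval and 0 higher, against 3.71% of all identifiers lower and 4.54% higher, with a median log2 change of -0.67, while ERCC scaling gave 5 higher, against 31% of all identifiers and 82.1% of the class of at least 100 CPM. The count of lower members was also 43 without the 30 min libraries, against 7.04% of identifiers. No member was higher there at an unadjusted p under 0.05, and DESeq2 called 44 lower. Rps16 went from 566.5 and 675.4 CPM to 290.7 and 269.3 CPM in CKO cells, while in Control cells it went from 312.6 and 271.6 to 257.1 and 252.9 CPM. After 20 min the Control and CKO libraries of Rps16 were thus close to each other. The fall in CKO cells from 10 min and the difference from Control at 10 min use the same CKO libraries of 10 min. A high value in those libraries favours both, so the counts are not separate observations.

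From 10 to 60 min, relative to the bulk of genes, 26 members fell in Control cells and 0 rose, against 3.21% of all identifiers lower and 6.88% higher, and 42 fell in CKO cells and 0 rose, against 6.24% lower and 8.96% higher, whereas ERCC scaling made all 46 higher in both genotypes, against 66.5% and 52.9% of all identifiers. Without the 30 min libraries 31 fell in Control and 42 in CKO cells, against 8.64% and 12% of identifiers lower. No member was higher in either genotype at an unadjusted p under 0.05, and DESeq2 called 34 lower in Control, 45 lower in CKO cells and 0 higher in either. The median log2 change was -0.32 in Control and -0.68 in CKO cells. The members that fell in both numbered 25, which is 25 of 26 in Control and 25 of 42 in CKO cells. With 42 of 46 members lower in CKO cells, most of the 26 would be shared in any case. The share of all identifiers lower in both was not computed. The Control count was 12 and 9 without the first and second library of 10 min, and 13 and 7 without the first and second library of 60 min. Rps16 fell by 0.57 ± 0.17 in Control (edgeR adjusted p = 0.0381) and by 1.07 ± 0.17 in CKO cells (adjusted p = 0.000195) on the log2 scale, and the Control value did not pass without the 30 min libraries (adjusted p = 0.0511). Rps19 fell by 0.55 and 0.98, and Rps7, a small subunit protein that also binds MDM2, fell by 0.56 in Control cells. In CKO cells Rpsa, with a log2 change of 0.03 ± 0.06, Rpl3 (-0.20), Rpl19 (-0.25) and Rpl41 (-0.70) did not pass. The CKO libraries of 10 min also enter the difference between genotypes at 10 min and the shorter interval in CKO cells described before. The falls in CKO cells and that difference are therefore not independent results.

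The step from 20 to 30 min was compared after its values had been seen. In Control cells 23 members fell and 0 rose relative to the bulk of genes, while 0.946% of all identifiers were lower and 0.447% higher, and with ERCC scaling 18 rose and 0 fell, against 26.6% of all identifiers and 83.7% of the class of at least 100 CPM higher. At an unadjusted p under 0.05 30 members were lower and 1 higher, and by DESeq2 25 were lower and 1 higher. The members' median log2 change was -0.41, with a range of -1.05 to 0.20, and the median over all identifiers was 0.00. These Control libraries were not among those that stood apart in depth, but the fit estimated its spread with the CKO libraries of 30 min included. Counts without those CKO libraries are not given for this step. Rps23 had 1391 and 1242 CPM at 20 min, 660.8 and 637.9 CPM at 30 min and 1209 and 1160 CPM at 60 min. Rps18 had 727 and 702.8, then 378.9 and 364.2, then 574.9 and 553.3 CPM. Both genes thus dipped at 30 min and were higher again at 60 min.

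Other members did not share the dip. Rps24, a small subunit protein, had 1522 and 1572 CPM at 20 min and 1601 and 1584 CPM at 30 min. Rps2 had 644.8 and 641.2, then 745.5 and 728.8 CPM (log2 change 0.17, edgeR adjusted p = 0.466). Rps23 fell by 1.05 ± 0.08 on the log2 scale (edgeR adjusted p = 9.96e-10), Rps18 fell by 0.98, Rpl32 fell by 0.93 and Rpl6 fell by 0.90, with standard errors of 0.07 to 0.10. Of the 23 genes that fell from 20 to 30 min in Control cells 16 rose again from 30 to 60 min, when 16 members in all were higher and 4 lower, against 2.2% and 0.953% of all identifiers. At an unadjusted p under 0.05 there were 19 higher and 13 lower in that step. Both steps use the same Control libraries of 30 min, so a low value there favours a fall and then a rise. The share of all identifiers that fell and rose again was not computed.

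In CKO cells 35 members fell and 1 (Rpl41) rose from 20 to 30 min, against 19.6% and 29.4% of all identifiers, while ERCC scaling gave 11 lower and 4 higher, against 3.75% and 32.8%. These values rest on the CKO libraries of 30 min, in which the median of the class of at least 100 CPM was also below Control. The share of that class called with TMM from 20 to 30 or 30 to 60 min in CKO cells is not given here. Neither step is therefore shown to be particular to these genes. All 23 members that fell in Control cells were among the 35. With 35 of 46 members called, much of this overlap would be present in any case, and the share of all identifiers was not computed. The changes in Control and CKO cells, which share no library, had Pearson r = 0.65 and Spearman rho = 0.69 over the 46 genes. Rpl37, another zinc-binding large subunit protein, had 765.4 and 779.5 CPM at 20 min and 241.1 and 249.4 CPM at 30 min in CKO cells, a log2 change of -1.97, and its change in Control cells was -0.84. From 30 to 60 min 35 members rose in CKO cells and 0 fell, against 20.4% of all identifiers higher and 32.2% lower, with 0 members lower at an unadjusted p under 0.05 and 27 higher and 10 lower by DESeq2.

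**Figure D4:**
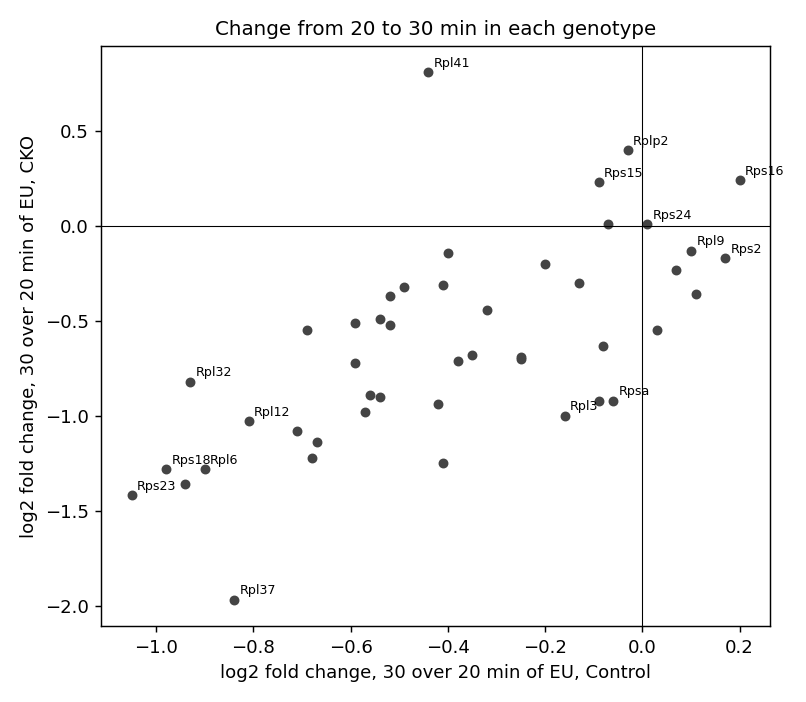
Log2 fold change from 20 to 30 min of EU with TMM scaling in Control (x axis) and CKO cells (y axis), with 1 point per gene for 46 genes and names beside some of them. Rps23, Rps18 and Rpl6 lie at the lower left, Rps24 near 0 on both axes, and Rpl41 is the only gene above 0.5 in CKO cells. With ERCC scaling 18 genes rose and 0 fell in Control cells.

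ERCC RNA, a synthetic spike-in, had been added at 0.01 μl per sample after capture and before library construction. Counts per ERCC count follow the yield of captured RNA, and cell number and capture yield enter them as well. The members gave 0.4385 and 0.4672 counts per ERCC count in Control at 10 min and 3.918 and 3.864 at 60 min. In CKO cells they gave 1.561 and 2.125 at 10 min and 5.113 and 5.184 at 60 min. Their yield at 60 min was 8.593 times that at 10 min in Control and 2.793 times in CKO cells, while that of all mouse genes was 11.07 and 4.488 times. The members' CKO over Control ratio was 4.071 at 10 min, 1.427 at 20 min, 0.8925 at 30 min and 1.323 at 60 min, beside 2.64, 1.318, 0.788 and 1.07 for all mouse genes. In the fit with ERCC scaling the members' median log2 fold change at 10 min was 2.08, against 1.14 over all identifiers and 1.30 over the class of at least 100 CPM, in which nearly every identifier was called higher. At 30 min the CKO libraries gave 2.613 and 1.563 counts per ERCC count, on both sides of the Control values of 2.289 and 2.39.

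**Figure D5:**
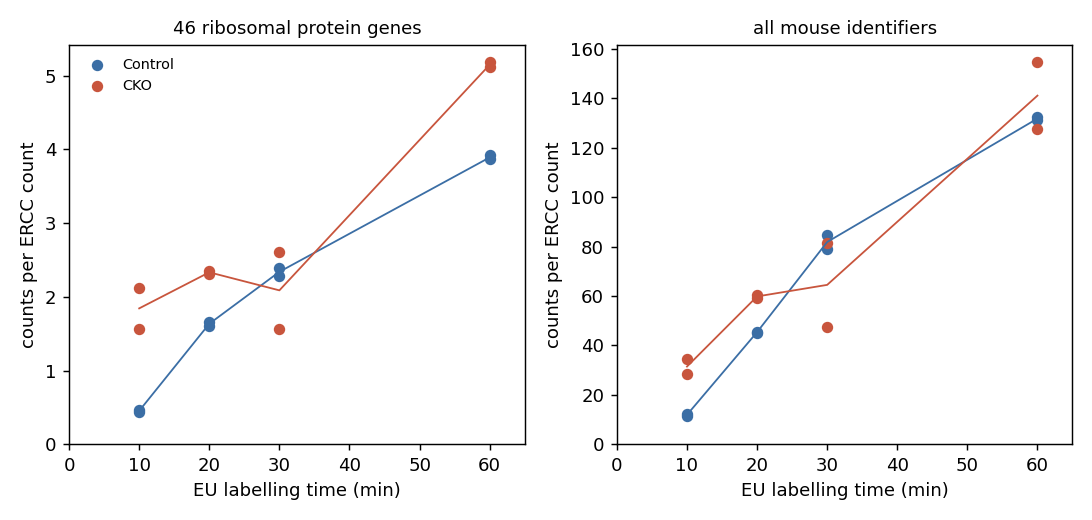
Counts per ERCC count (y axis) against EU time in min (x axis) for the 46 genes (left) and all mouse identifiers (right), with 1 point per library and lines through the group means. The members rise from 0.4385 and 0.4672 to 3.918 and 3.864 in Control cells, and the CKO libraries of 10 min, at 1.561 and 2.125, lie above both Control libraries.

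Gene length and snoRNA content were set against these values as descriptions. The difference between genotypes at 10 min was larger in genes of shorter span, with Pearson r = -0.51 and Spearman rho = -0.39 between log2 span and log2 fold change over 43 named genes. The values at 60 min were -0.47 and -0.39. The change from 20 to 30 min in Control cells had r = 0.05 with span. Span also went with the ratio of the CKO libraries of 60 min, with r = -0.43, and the part of that spread between replicates in the other values was not tested. These pairs were kept from 78 rank correlations among 13 measures that were looked at.

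Of the 43 named genes 19 hold at least 1 snoRNA gene within their span, 36 snoRNA genes in all, and reads of these may enter the counts. The median log2 fold change at 10 min was 0.75 in the 19 genes and 0.76 in the other 24. For the change from 20 to 30 min in Control cells the medians were -0.32 and -0.41. RefSeq also lists 142 pseudogenes named after 32 of the 43 genes, and how reads shared with such copies were counted is not given in the sources used here. Counts of these members are uncertain to that extent.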

How the data were processed

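Nascent RNA-seq libraries were made with a SMARTer Stranded Total RNA-Seq kit, per the labels' protocols. The authors deposited unnormalised read counts for 54446 mouse and 92 ERCC identifiers. The submitters' processing notes name CASAVA, Trimmomatic 0.38, HISAT2 2.1.0, HTSeq and mm10. Not given in the sources used here were the annotation, strand setting, feature type and handling of multiply mapped reads. Counts were tested with edgeR 4.0.16 (R 4.3.3, filter on low counts by group, TMM, robust quasi-likelihood F-test), and standard errors come from the F statistic. On simulated data this test recovered 198 of 200 planted changes over all EU times and 150 of 200 at 10 min, with 11 and 13 false calls. The simulated counts had the same spread in every group, unlike these libraries. The overall effect used EU time and genotype in 16 libraries, and other comparisons used 8 group means. Alternatives were DESeq2 1.42.0, its size factors, ERCC scaling, library totals, no filter, a replicate block and omission of libraries. Counts at an unadjusted p, by DESeq2 or with its size factors are given without a share over all identifiers. So are those with library totals, a replicate block, single libraries left out or the CKO libraries of 30 min left out. Such counts show how calls on the members held, not how the members compare with other identifiers.

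The members and lists were chosen with earlier results of these data known. Named genes were the 6 highest and 6 lowest members called per comparison and members of fixed roles, and not all of these are printed. The steps between neighbouring EU times, the setting with library totals, the class of at least 100 CPM, the motifs, the correlations and the selection of genes described with library values were chosen after values had been seen. Planned lists of other translation genes were not analysed here, since the supplied gene table matched 0 identifiers. Replicates differed beyond sampling noise in every group (chi-square per degree of freedom 3.51 to 21 over all identifiers; over the members 165 in the CKO libraries of 10 min, 667 in those of 60 min and 5.72 to 19.7 elsewhere). Counting error is small beside this spread.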

Additional observations from a re-analysis of the deposited data

Results flagged for a closer look

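The difference between CKO and Control cells was not the same at all EU times for most ribosomal protein genes. The F-test of this change passed for 44 of 46 members with all libraries, against 22.7% of all identifiers. Without the 30 min libraries, among which the CKO libraries stand apart, it passed for 25, against 5.58%. Rplp1 had a log2 difference of 1.13 at 10 min, 0.57 at 20 min, 0.24 at 30 min and 0.62 at 60 min. Rps16 had 1.17, 0.13, 0.17 and 0.67, and did not pass without the 30 min libraries (edgeR adjusted p = 0.134).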

How the results depend on the processing

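Over the settings tried, 1516 results for named genes were recomputed. Of these, 1329 stayed on the same side of the threshold, 159 lost the call, 22 gained one and 6 called results reversed. A change of sign in a result not called in the main fit was not counted as a reversal, so such results need not have kept direction. The 6 reversals came with ERCC scaling of the change from 10 to 60 min, where log2 changes were 2.82 for Rps16, 2.83 for Rps7 and 2.84 for Rps19 in Control, and 1.00 for Rps16, 1.10 for Rplp1 and 1.11 for Rps19 in CKO cells. ERCC scaling includes the rise in captured RNA with labelling time, which TMM removes. Under it the number of members called was 1 at 20 min, 8 at 30 min and 0 at 60 min, where 0.0437% of all identifiers were higher. From 10 to 60 min 46 members were higher in Control and 46 in CKO cells. From 20 to 30 min 18 were higher in Control cells, and in CKO cells 15 were called, 4 higher and 11 lower. DESeq2 called 27 members over all EU times and 25 at 30 min, its size factors in edgeR gave 25 at 30 min, and library totals gave 23 there. Without the 30 min libraries 33 members were called over all EU times and 25 for the change with EU time, and without the CKO libraries of 30 min 36 were called over all EU times. The cause of these shifts was not tested.

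No pairing by replicate number was seen over identifiers of at least 10 CPM, where 0 of 28 pairs of groups had a correlation of deviations over 0.1. This check cannot exclude pairing that touches fewer genes, such as the members. With the replicate number as a block 6 members were called at 20 min, 43 at 10 min, 33 at 30 min, 32 at 60 min, 14 over all EU times and 46 for the change with EU time. The block gave 33 lower in Control and 44 lower in CKO cells from 10 to 60 min, and 28 and 40 called from 20 to 30 min.

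Leaving out each library in turn gave 11 to 18 members called over all EU times, 34 to 43 at 10 min, 1 to 8 at 20 min, 21 to 33 at 30 min, 5 to 30 at 60 min and 36 to 46 for the change with EU time. From 10 to 60 min it gave 7 to 33 in Control and 35 to 45 in CKO cells, and from 20 to 30 min 17 to 30 and 28 to 39. The share ratio of CKO to Control ranged over 1.437 to 1.629 at 10 min, 1.067 to 1.099 at 20 min, 1.12 to 1.153 at 30 min and 1.136 to 1.357 at 60 min. The ratio per ERCC count ranged over 3.448 to 4.693, 1.401 to 1.454, 0.6681 to 1.117 and 1.314 to 1.332. In these fits the lone library of a group is assumed to vary like the others.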
